A study of Mus musculus with 16 samples.

Results

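Acyl-CoA synthetases and acyl-CoA thioesterases carry out opposite reactions on fatty acids, and 10 genes of these families were followed in B16F10 melanomas grown in lean and obese mice. They were taken by name, as every gene of the deposited table whose symbol is Acsl1, Acsl3, Acsl4, Acsl5, Acsl6, Acot1, Acot2, Acot7, Acot9 or Acot13. This list of names was set with earlier results of these data known. All 10 were found among the 45777 genes listed, and all 10 passed the requirement of a count above 0 in every tumor, which 16209 genes passed. The 5 Acsl genes encode long-chain acyl-CoA synthetases, which join a free fatty acid to coenzyme A and so trap it inside the cell for oxidation in mitochondria, for storage in lipid droplets or for membrane lipids. The 5 Acot genes encode thioesterases, which split acyl-CoA back into free fatty acid and coenzyme A. The balance of both activities sets the pool of acyl-CoA that the carnitine shuttle can carry into mitochondria, and several of the genes are known targets of the nuclear receptor PPARα in liver.

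B16F10 is a pigmented melanoma line of the C57BL/6J strain, and its cells were placed under the skin of wild-type C57BL/6J mice (lean) or of leptin-deficient ob/ob mice (obese), all 6 weeks old at implantation. In each host, tumors were collected before therapy (labelled B6_ctrl and ob_ob_ctrl) or after 5 injections of etoposide (ETS) at 20 mg/kg (labelled B6_ETS and ob_ob_ETS), with 4 tumors in each of the 4 groups. ETS is a topoisomerase II poison that causes DNA breaks, and all 16 tumors came from this one line. The tumors before therapy are not stated to be of the same day as those after ETS, so the drug and the added days of growth cannot be told apart, and ob/ob mice differ from lean mice in leptin as well as in fat mass.

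Acot1 and Acot2 need care, because they are neighbouring copies on chromosome 12 and short reads can fit both. In the GRCm38.p6 gene table, Acot2 lies at chr12:83987861-83993877 and Acot1 at chr12:84009502-84017670, both on the plus strand with 15624 bases between them. Over 1236 aligned coding bases, they were 95.3% identical and differed at 58 positions. Of all stretches of 101 bases, the length of 1 read, in the reference transcripts, 21.7% for Acot1 and 17.0% for Acot2 also occurred in a transcript of another gene of the cluster. The stretch of 60 coding bases that tells both apart best holds 13 differences, shown in capitals, and stands at bases 823 to 882 of the Acot1 coding sequence and 946 to 1005 of Acot2 in GENCODE M21.
Acot1: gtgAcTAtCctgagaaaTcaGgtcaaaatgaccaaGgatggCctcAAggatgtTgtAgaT
Acot2: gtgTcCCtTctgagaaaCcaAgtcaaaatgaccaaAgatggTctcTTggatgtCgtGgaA
Downstream of it comes an identical run of 273 bases, in which a read could be assigned only through a mate outside it. Acot2 alone has 123 further coding bases before the point where the Acot1 start codon falls, printed here with the Acot2 start codon in capitals because this start is what separates the mitochondrial protein from the cytosolic one.
Acot2 coding start: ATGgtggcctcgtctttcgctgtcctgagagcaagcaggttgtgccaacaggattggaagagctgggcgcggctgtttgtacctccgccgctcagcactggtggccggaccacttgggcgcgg
Values of Acot1 and Acot2 are therefore uncertain as far as the counting split shared reads. For the other 8 genes, shared stretches made up 2.78% of Acsl3 (with Utp14b) and 0.787% of Acot9 (with Acot10) and were not found in the other 6. Exons of Acsl1, Acsl5 and Acsl6 overlap a gene on the opposite strand (Gm45244, Zdhhc6 and Gm12224), and since the strand setting of the counting is not given, reads of these pairs cannot be told apart.

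The 16 libraries held between 47199949 and 61655287 counts. All 10 melanocyte markers examined were above 0 in every tumor. Levels are given in CPM, the counts of a gene scaled to the library total after its correction by TMM. The summed level of these markers was 24300–30700 CPM in lean tumors before therapy and 32200–38500 CPM in lean tumors after ETS. It was 15200–20700 CPM in obese tumors before therapy and 16100–38000 CPM in obese tumors after ETS. Markers of other cells differed between groups. The 12 macrophage markers summed to 451–1420 CPM in lean tumors before therapy, 56.3–445 in lean tumors after ETS, 47.1–275 in obese tumors before therapy and 384–1200 in obese tumors after ETS, and the 11 lymphocyte markers to 19.8–36.3, 2.18–3.85, 1.43–2.43 and 2.61–3.92 CPM in the same order. The 8 fibroblast markers summed to 532–2220, 97.2–604, 95.5–610 and 616–5710 CPM in that order, with 5710 CPM in obese tumor 4 after ETS against 616–1840 in the other 3 tumors of its group, and the 7 endothelial markers to 140–166, 125–142, 108–141 and 160–341 CPM. In bulk tumors, fewer cells of a type and less RNA per cell cannot be told apart.

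Levels of different genes were compared as TPM, which are scaled by transcript length as well as library total. In lean tumors before therapy, Acot7 was highest with 117 ± 14.2 TPM (SD, n = 4), followed by Acsl5 with 105 ± 9.70, Acot13 with 73.3 ± 8.95 and Acsl3 with 69.9 ± 7.76. Acot9 was at 33.0 ± 1.71 TPM, Acot1 at 22.1 ± 3.01, Acsl4 at 20.4 ± 3.38, Acsl1 at 16.9 ± 1.88, Acot2 at 15.3 ± 3.40 and Acsl6 at 0.503 ± 0.106 TPM. Acot7 and Acsl5 overlapped between tumors, as did Acot13 and Acsl3, and so did each neighbouring pair from Acot1 down to Acot2. Acsl5 and Acot13, Acsl3 and Acot9, Acot9 and Acot1, and Acot2 and Acsl6 did not overlap in any tumor. Acot7 was also the highest of the 10 in every other group. In obese tumors after ETS the order of the other means differed, with Acot7 at 174 ± 14.5, Acot13 at 61.9 ± 4.55, Acsl5 at 56.2 ± 5.24, Acsl3 at 35.3 ± 10.5, Acot1 at 33.5 ± 11.6, Acsl1 at 23.3 ± 2.92 and Acot9 at 23.05 ± 4.29 TPM. There, Acot13 and Acsl5 overlapped between tumors, as did Acsl3 and Acot1, Acot1 and Acsl1, and Acsl1 and Acot9.

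**Figure D1:**
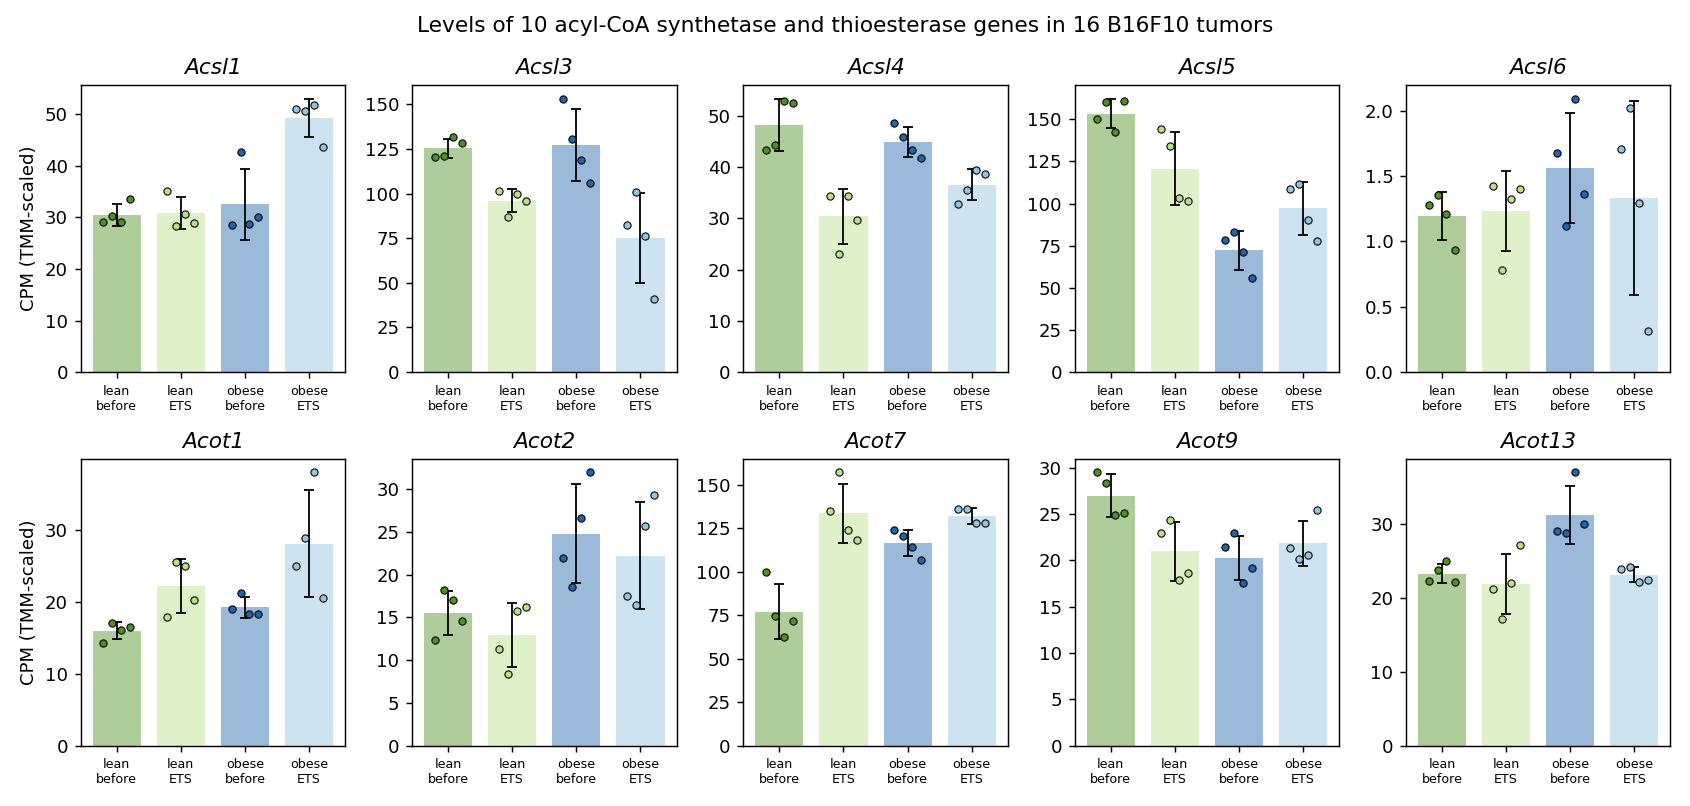
Level of each of the 10 genes in CPM scaled by TMM (vertical axis, starting at 0, with its own range for each gene), for lean and obese tumors before therapy and after ETS. Points are the 4 tumors of a group, bars the mean and error bars the SD. The obese ETS tumors of Acsl1 lie between 43.7 and 51.8 CPM, above all 12 other tumors, and the lean tumors of Acot7 before therapy lie between 62.4 and 99.8 CPM, below all 12 other tumors.

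Changes were measured as log2 fold changes of the counts by edgeR's quasi-likelihood test, and a gene was called when its p adjusted over all 16209 genes by Benjamini-Hochberg was under 0.05. After ETS in lean tumors, 4 of the 10 genes were called, where 43.8% of all genes were. Acot7 and Acot1 were higher (2 genes; 21% of all genes were called higher) and Acsl4 and Acot9 were lower (2 genes; 22.8% of all genes were called lower). After ETS in obese tumors, 5 genes were called against 40.2% of all genes. These were Acsl1, Acsl5 and Acot1, which were higher (3 genes; 21.2% of all genes), and Acsl3 and Acot13, which were lower (2 genes; 19% of all genes). Each of these shares lies near that of all genes or rests on few members, and their median log2 value was -0.18 for lean and -0.02 for obese tumors, against -0.01 and 0.01 over all genes.

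Acot1 was the only one of the 10 genes called after ETS in both hosts, while 7 were called in lean or in obese tumors alone. A call in one host and not in the other does not show that the hosts differ, so the effect of ETS in lean tumors was tested against that in obese tumors. This difference was called for 3 of the 10 genes, where 16.4% of all genes were called. For Acot7 the effect was more positive in lean tumors (1 gene; 6.35% of all genes), and for Acsl1 and Acsl5 it was more positive in obese tumors (2 genes; 10.1% of all genes). Before therapy, obese and lean tumors differed in 5 of the 10 genes, against 26.4% of all genes. Acot2, Acot7 and Acot13 were higher in obese tumors (3 genes; 13.5% of all genes) and Acsl5 and Acot9 were lower (2 genes; 12.9% of all genes). After ETS, Acsl1 was the 1 gene called, against 5.58% of all genes, and it was higher in obese tumors (3.28% of all genes were called higher and 2.3% lower). Acsl6 was called in none of the 5 comparisons. These comparisons use the same 16 tumors, so those that share a group are not independent of each other.

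**Figure D2:**
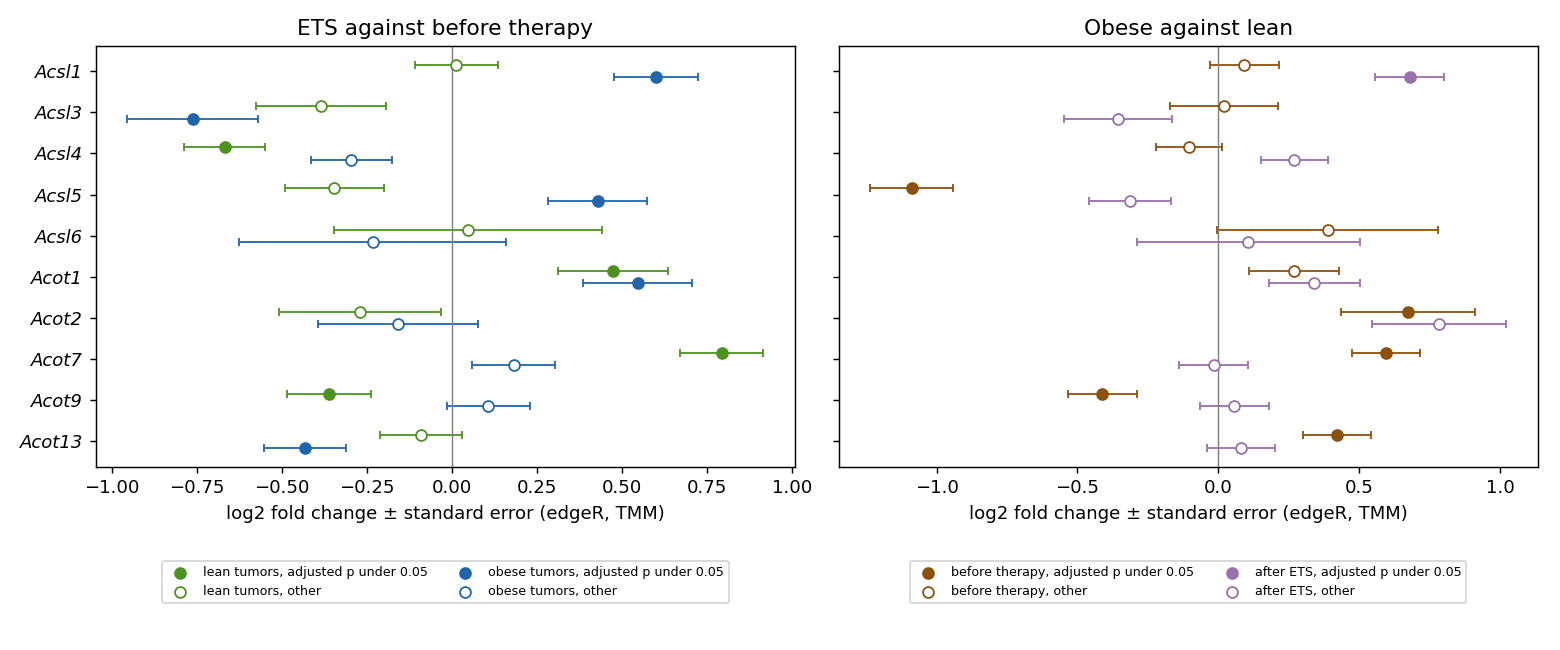
Log2 fold change of each gene with its standard error from edgeR (horizontal axis, counts scaled by TMM). The left panel shows ETS against before therapy in lean (green) and obese tumors (blue), and the right panel obese against lean tumors before therapy (brown) and after ETS (purple), with filled points for an adjusted p under 0.05. After ETS in obese tumors, Acsl1 and Acsl5 lie to the right of 0 with filled points (0.60 and 0.43). In lean tumors both points are open, with Acsl1 next to 0 (0.01, or -0.34 on the TPM scale) and Acsl5 to the left of 0 (-0.34).

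Acsl1 encodes the synthetase of the outer mitochondrial membrane and endoplasmic reticulum that is abundant in fat, liver and heart, and it was higher after ETS in obese tumors. The obese tumors 1 to 4 before therapy held 28.5, 42.7, 28.8 and 30.2 CPM, and those after ETS held 51.0, 50.7, 51.8 and 43.7 CPM. All 4 tumors after ETS were above all 4 before, although obese tumor 2 before therapy came close to the lowest of them. In lean tumors the values were 29.1, 30.3, 29.0 and 33.6 CPM before therapy and 35.2, 28.3, 30.7 and 28.9 CPM after ETS, so that the groups overlapped. The log2 fold change was 0.60 ± 0.12 (SE) in obese tumors (adjusted p = 0.00163, edgeR) and 0.01 ± 0.12 in lean tumors (adjusted p = 0.936, edgeR, with a change of -0.34 on the TPM scale). Subtracting the obese from the lean effect gave -0.59 ± 0.17 (adjusted p = 0.0303, edgeR). This call was lost without lean tumors 2 or 4 before therapy, lean tumors 3 or 4 after ETS, obese tumors 1, 3 or 4 before therapy, or obese tumor 3 after ETS (adjusted p of 0.0504 to 0.0680), with values of -0.59 to -0.52.

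Acsl1 also separated the hosts after ETS, where the obese tumors were 1.60-fold higher than the lean ones with no overlap. The log2 fold change was 0.68 ± 0.12 (adjusted p = 0.0105, edgeR), against 0.09 ± 0.12 before therapy (adjusted p = 0.619, with a change of -0.0545 on the TPM scale). No tumor left out ended this call, with adjusted p of at most 0.0407. Adipocytes express Acsl1 at high level, and the 8 adipocyte markers summed to 66.2–260 CPM in obese tumors after ETS, 13.5–103 CPM in obese tumors before therapy, 10.3–28.0 CPM in lean tumors before therapy and 7.66–21.3 CPM in lean tumors after ETS. In the obese ETS group, 4 of the 8 markers were above 0 in all tumors, and Plin1, Cidec, Cfd and Retn were at 0 in at least 1 tumor. Above 0 in all tumors were 3 markers in lean and 3 in obese tumors before therapy, and only 1, Fabp4, in lean tumors after ETS. The tumor with most adipocyte marker signal before therapy (103 CPM) was obese tumor 2, which had also the highest Acsl1 of that group, and after ETS obese tumor 4 had the least of both (66.2 CPM of markers), whereas obese tumors 1, 2 and 3 had 260, 101 and 143 CPM of markers at nearly the same Acsl1 level. As with Acsl1, the sums of fibroblast markers (616–5710 CPM) and endothelial markers (160–341 CPM) in obese tumors after ETS were above those of lean tumors after ETS and of obese tumors before therapy, without overlap. Unlike Acsl1, both sums overlapped those of lean tumors before therapy (532–2220 and 140–166 CPM), where Acsl1 was at 29.0 to 33.6 CPM. The part of these cells in the result was not tested.

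Acsl5, a synthetase of mitochondria and endoplasmic reticulum that is prominent in intestine, showed the largest difference between the hosts before therapy among the 10 genes. Lean tumors 1 to 4 held 150, 160, 143 and 161 CPM and obese tumors 78.2, 83.1, 71.3 and 56.0 CPM, so that every lean tumor was above every obese tumor by a wide margin. The fold was 2.13, with a log2 fold change of -1.09 ± 0.15 (adjusted p = 8.7e-05, edgeR), and no tumor left out ended the call. After ETS, lean tumors held 144, 134, 103 and 101 CPM and obese tumors 109, 112, 90.4 and 78.0 CPM, which overlapped (log2 fold change -0.31 ± 0.15, adjusted p = 0.192).

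The effect of ETS on Acsl5 differed between the hosts, with a rise in obese tumors that passed the test and values in lean tumors that did not. The log2 fold change was 0.43 ± 0.15 in obese tumors (adjusted p = 0.0288, edgeR), where only the lowest tumor after ETS overlapped those before therapy, and -0.34 ± 0.15 in lean tumors (adjusted p = 0.0652, edgeR). The lean effect minus the obese effect was -0.77 ± 0.21 (adjusted p = 0.0176, edgeR) and was called with every tumor left out in turn, with values of -0.90 to -0.67. The rise in obese tumors was not called without obese tumors 3 or 4 before therapy or obese tumors 1 or 2 after ETS (adjusted p of 0.0631 to 0.0962), on the TPM scale (adjusted p = 0.0631) or with only the obese tumors in the fit (adjusted p = 0.0582). In lean tumors, Acsl5 was called lower with DESeq2 (adjusted p = 0.048), with only the lean tumors in the fit (adjusted p = 0.0463), on the TPM scale (adjusted p = 0.000522), with a replicate block (adjusted p = 0.00975), and without lean tumors 1 or 2 after ETS, obese tumor 4 before therapy or obese tumors 1 or 4 after ETS (adjusted p of 0.0208 to 0.0497). The TPM-scale test did not remove the shift of all genes on that scale, which was -0.28 in lean tumors. The Acsl5 change was -0.72 on that scale and -0.45 relative to the shift.

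The summed lymphocyte and macrophage markers were, like Acsl5, higher in every lean tumor than in any obese tumor before therapy. Before therapy, 9 of the 11 lymphocyte markers were above 0 in all lean tumors and 1 of 11 in all obese tumors, where Cd3e and Ncr1 were at 0 throughout. All 12 macrophage markers were above 0 in every obese tumor before therapy. After ETS the lymphocyte markers of the hosts overlapped, and the lean tumors held 2.18–3.85 CPM of them while Acsl5 was still at 101 to 144 CPM. The macrophage markers also overlapped after ETS, with 56.3–445 CPM in lean and 384–1200 CPM in obese tumors. From before therapy to after ETS, their median went from 1110 to 245 CPM in lean and from 118 to 603 CPM in obese tumors. Mean Acsl5 went from 153 to 121 CPM in lean and from 72 to 97 CPM in obese tumors. The melanocyte markers also separated the hosts before therapy, with 24300–30700 CPM in lean and 15200–20700 CPM in obese tumors. The part of these cells in the Acsl5 values was not tested.

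Acsl3 encodes a synthetase of the endoplasmic reticulum and of forming lipid droplets, and it was lower after ETS in obese tumors. Its values were 153, 131, 119 and 106 CPM in obese tumors before therapy and 82.3, 101, 76.4 and 40.7 CPM after ETS, without overlap. This was a log2 fold change of -0.76 ± 0.19 (adjusted p = 0.00615, edgeR). In obese tumor 4 after ETS, the library richest in fibroblast markers, Acsl3 was lowest. Within its group, this tumor also had the lowest sum of melanocyte markers (16100 CPM against 38000, 35600 and 22400 CPM). Its sum of macrophage markers was the highest of the group (1200 CPM against 718, 384 and 489 CPM). The part of these cells was not tested. The call was kept in all fits that left out a tumor, with values of -0.94 to -0.55. In lean tumors the values were 120, 121, 132 and 128 CPM before therapy and 101, 86.9, 99.9 and 96.0 CPM after ETS. These groups did not overlap either, but the log2 fold change of -0.38 ± 0.19 was not called (adjusted p = 0.114, edgeR) and the difference between the hosts was 0.38 ± 0.27 (adjusted p = 0.376). The lean change was called without obese tumor 4 after ETS (-0.41, adjusted p = 0.00916), with only the lean tumors in the fit (adjusted p = 0.00465) and on the TPM scale (adjusted p = 0.00564). The last test did not remove the shift of all genes on that scale (-0.28), relative to which the Acsl3 change was -0.47. Acsl3 did not separate lean from obese tumors before therapy (0.02 ± 0.19, adjusted p = 0.949, with a change of -0.12 on the TPM scale).

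Acsl4 prefers arachidonic acid and related long, unsaturated fatty acids, and supplies the membrane lipids that are oxidised in ferroptosis. Its level fell after ETS in lean tumors, from 43.4, 44.3, 52.9 and 52.4 CPM before therapy to 34.4, 23.1, 34.3 and 29.7 CPM. The highest tumor after ETS was below the lowest before therapy, and the log2 fold change was -0.67 ± 0.12 (adjusted p = 0.00053, edgeR), with values of -0.75 to -0.56 when a tumor was left out. In obese tumors, the values were 48.5, 45.8, 43.4 and 41.8 CPM before therapy and 32.7, 35.5, 39.4 and 38.7 CPM after ETS. The obese groups did not overlap, but the log2 fold change of -0.30 ± 0.12 was not called (adjusted p = 0.0592, edgeR), and neither was the difference between the hosts (-0.37 ± 0.17, adjusted p = 0.148). Acsl4 was called lower in obese tumors with filterByExpr (adjusted p = 0.0498), with only the obese tumors in the fit (adjusted p = 0.0323), with a replicate block (adjusted p = 0.0471) and without lean tumor 2 after ETS (adjusted p = 0.0266).

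Acsl6, which is known mainly from brain, was close to the limit of what these libraries measure. It had 18 to 125 counts per tumor, or 0.315 to 2.09 CPM, and every group overlapped every other. Its log2 fold changes ranged from -0.23 ± 0.39 after ETS in obese tumors to 0.39 ± 0.39 between obese and lean tumors before therapy. The standard errors of about 0.39 in the comparisons of groups were the largest among the 10 genes, and its lowest value was that of obese tumor 4 after ETS.

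Acot7, a cytosolic thioesterase that is abundant in brain and hydrolyses arachidonoyl-CoA, was the most strongly changed of the thioesterases in lean tumors. Lean tumors before therapy held 99.8, 74.6, 62.4 and 71.6 CPM and lean tumors after ETS 135, 157, 124 and 119 CPM. Obese tumors held 124, 121, 114 and 107 CPM before therapy and 136, 136, 128 and 128 CPM after ETS. The lean tumors before therapy were thus the low group, and all other tumors lay above their highest value. After ETS, the log2 fold change was 0.79 ± 0.12 in lean tumors (adjusted p = 0.000178, edgeR) and 0.18 ± 0.12 in obese tumors (adjusted p = 0.246, edgeR). Before therapy, obese tumors were higher than lean tumors by 0.60 ± 0.12 (adjusted p = 0.00229, edgeR), and after ETS the hosts differed by -0.02 ± 0.12 (adjusted p = 0.953, with a change of 0.14 on the TPM scale).

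Both called differences of Acot7 between groups use the same lean tumors before therapy. Subtracted from the lean effect, the obese effect left 0.61 ± 0.17 (adjusted p = 0.0241, edgeR). It was not called without lean tumor 4 before therapy (0.58, adjusted p = 0.0543) or lean tumor 2 after ETS (0.51, adjusted p = 0.0542), nor on the TPM scale (0.35, adjusted p = 0.0845). Its rise in lean tumors after ETS and its difference between the hosts before therapy were called in every alternative.

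Acot9, a mitochondrial thioesterase of short and long chains, was highest on average in lean tumors before therapy, which overlapped obese tumors after ETS. They held 29.5, 28.4, 24.9 and 25.1 CPM, against 23.0, 24.4, 17.9 and 18.7 CPM after ETS and 21.4, 22.9, 17.5 and 19.2 CPM in obese tumors before therapy. The highest tumor after ETS was just below the lowest before therapy. On the log2 scale this was a change of -0.36 ± 0.12 after ETS in lean tumors (adjusted p = 0.0263, edgeR) and -0.41 ± 0.12 in obese against lean tumors before therapy (adjusted p = 0.0215, edgeR). The first was not called without lean tumors 1 or 2 before therapy or 3 or 4 after ETS (adjusted p of 0.0632 to 0.0812), and the second without lean tumors 1 or 2 or obese tumors 3 or 4 before therapy (adjusted p of 0.0536 to 0.0711).

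In obese tumors, Acot9 was at 21.3, 20.1, 20.5 and 25.4 CPM after ETS and the groups overlapped (0.11 ± 0.12, adjusted p = 0.511). The difference between the effects of ETS was -0.47 ± 0.17 and missed the threshold (adjusted p = 0.0779, edgeR), but it was called with DESeq2 (adjusted p = 0.036), on the TPM scale (adjusted p = 0.00869), with a replicate block (adjusted p = 0.0416) and without lean tumor 2 after ETS (adjusted p = 0.0381). On the TPM scale this difference was -0.73, or -0.57 relative to the shift of all genes (-0.16), which that test did not remove. Macrophage and lymphocyte marker sums likewise had their highest median in lean tumors before therapy, although in obese tumors after ETS macrophage markers were at 384–1200 CPM while Acot9 stayed at 20.1 to 25.4 CPM. Their part in the Acot9 values was not tested.

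Acot1, the cytosolic member of the cluster on chromosome 12 and a known PPARα target, was called higher after ETS in both hosts. Its values were 14.3, 17.0, 16.01 and 16.5 CPM in lean tumors before therapy and 17.9, 25.6, 25.0 and 20.2 CPM after ETS, without overlap. In obese tumors they were 19.0, 21.3, 18.3 and 18.2 CPM before therapy and 24.9, 28.8, 37.9 and 20.6 CPM after ETS, where the lowest tumor after ETS lay within the range before therapy. The log2 fold change was 0.47 ± 0.16 in lean (adjusted p = 0.0265, edgeR) and 0.55 ± 0.16 in obese tumors (adjusted p = 0.0146, edgeR), and the effects differed by -0.07 ± 0.23 (adjusted p = 0.866). The lean call was lost without lean tumors 1 or 3 before therapy or 2 or 3 after ETS (adjusted p of 0.0527 to 0.0936) and the obese call without obese tumor 3 after ETS (0.37, adjusted p = 0.0514). Neither was called on the TPM scale, on which the changes were 0.08 (adjusted p = 0.732) and 0.41 (adjusted p = 0.102). Ppara itself was near the detection limit, with group means between 0.512 and 0.984 CPM, and was called in none of the 5 comparisons. Its log2 fold change after ETS was 0.73 ± 0.34 in lean (adjusted p = 0.0904, edgeR) and 0.28 ± 0.33 in obese tumors (adjusted p = 0.522, edgeR).

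Acot2, the mitochondrial copy, was called between the hosts before therapy and in no other comparison. Lean tumors before therapy held 12.4, 18.2, 17.0 and 14.6 CPM and obese tumors 21.9, 18.6, 26.7 and 32.0 CPM, with the lowest obese tumor just above the highest lean one. Its log2 fold change of 0.67 ± 0.24 passed the threshold narrowly (adjusted p = 0.0476, edgeR). It was called in only 4 of 16 fits that left out a tumor, those without lean tumors 2 or 4 after ETS, obese tumor 2 before therapy or obese tumor 2 after ETS, and the other 12 gave adjusted p of 0.0504 to 0.155. It was also not called with DESeq2's size factors (adjusted p = 0.0575), without the exclusion of zero counts (adjusted p = 0.0869) or on the TPM scale (adjusted p = 0.220). After ETS, lean tumors held 11.3, 8.37, 15.7 and 16.3 CPM and obese tumors 17.5, 16.4, 25.7 and 29.3 CPM. The fold was 1.72 without overlap, and it missed the threshold (0.78 ± 0.24, adjusted p = 0.0638, edgeR) but passed with the exact test (adjusted p = 0.026), with DESeq2 (adjusted p = 0.021), with a replicate block (adjusted p = 0.021) and without obese tumor 2 after ETS (adjusted p = 0.0398). The log2 fold changes after ETS were -0.27 ± 0.24 in lean and -0.16 ± 0.24 in obese tumors, both uncalled. Within each obese group the tumors with most Acot2 were numbers 3 and 4, while Acot1 was highest in tumor 2 before therapy and tumor 3 after ETS.

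Acot13, a small thioesterase associated with mitochondria, fell after ETS in obese tumors and before therapy was higher there than in lean tumors. Obese tumors held 29.0, 28.8, 37.0 and 30.01 CPM before therapy and 23.8, 24.1, 22.1 and 22.4 CPM after ETS, and the latter values were in the range of the lean tumors. Lean tumors held 22.3, 23.8, 25.0 and 22.2 CPM before therapy and 21.2, 17.2, 22.0 and 27.2 CPM after ETS. Its log2 fold change was -0.43 ± 0.12 after ETS in obese tumors (adjusted p = 0.0109, edgeR), -0.09 ± 0.12 in lean tumors (adjusted p = 0.566) and 0.42 ± 0.12 between the hosts before therapy (adjusted p = 0.0175, edgeR). The difference between the effects of ETS was 0.34 ± 0.17 (adjusted p = 0.191). On the TPM scale, Acot13 was called lower in both hosts. The changes were -0.47 in lean (adjusted p = 0.0149, limma) and -0.51 in obese tumors (adjusted p = 0.0157, limma). These effects differed by 0.04 (adjusted p = 0.937, limma). This test did not remove the shift of all genes on that scale (-0.28 for lean, -0.05 for obese tumors, -0.16 for the difference). For lean tumors it called 53.3% of all genes, 7281 of them lower and 1351 higher. Relative to the shift, the Acot13 values were -0.20 for lean tumors, -0.46 for obese tumors and 0.20 for the difference. The difference between hosts before therapy was not called without lean tumor 4 (0.40, adjusted p = 0.0505) or obese tumor 3 before therapy (0.33, adjusted p = 0.0663) or on the TPM scale (0.28, adjusted p = 0.197), whereas the fall in obese tumors was called in every alternative.

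How the total was scaled changed some of these values, and the most abundant genes took more of the libraries after ETS. The 20 most abundant genes of a library held 10.2–12.9% of counts before therapy and 16.3–21.1% after ETS in lean tumors, and at most 12.5% before therapy and 12.1–18.2% after ETS in obese tumors. On the log2(TPM + 1) scale, which does not correct for this, the median of all tested genes shifted by -0.28 after ETS in lean tumors and by -0.05 in obese tumors, by -0.16 in the difference between the effects, by -0.08 between the hosts before therapy and by 0.10 between the hosts after ETS. Among called genes, the share that was higher went from 48.0% to 15.7% after ETS in lean tumors, from 38.7% to 9.24% for the difference, from 51.0% to 29.0% between hosts before therapy and from 58.7% to 83.8% between hosts after ETS. Relative to that shift, lean tumors after ETS changed by 0.71 in Acot7, 0.36 in Acot1, -0.07 in Acsl1, -0.20 in Acot13, -0.44 in Acot9, -0.45 in Acsl5, -0.47 in Acsl3 and -0.70 in Acsl4. In obese tumors, the changes relative to the shift were 0.55 in Acsl1, 0.46 in Acot1, 0.38 in Acsl5, -0.46 in Acot13 and -0.84 in Acsl3.

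**Figure D3:**
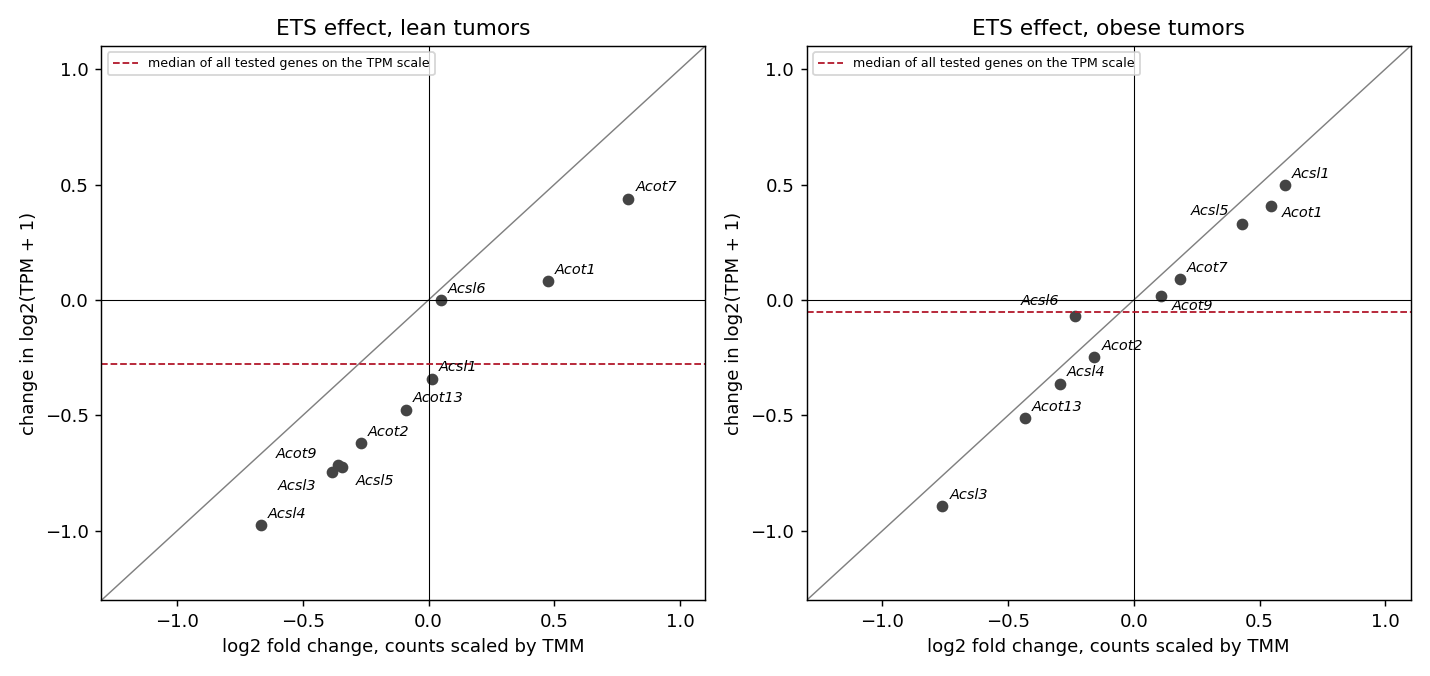
Change after ETS in lean (left) and obese tumors (right) for each of the 10 genes, as the log2 fold change of counts scaled by TMM (horizontal axis) against the change in log2(TPM + 1) (vertical axis), with 1 point per gene. The grey diagonal marks equal values and the dashed line the median of all tested genes on the TPM scale, at -0.28 in lean and -0.05 in obese tumors. In lean tumors all points lie below the diagonal and the order of the genes stays much the same, with Acot7 highest and Acsl4 lowest on both scales.

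Shares within each family do not depend on how the total is scaled and were computed, as a description with no test, after the values above had been seen. Of the summed TPM of the 5 Acsl genes, Acsl5 made up 46.6–51.5% before and 44.6–55.5% after ETS in lean tumors, but 29.0–32.8% before and 41.1–45.7% after ETS in obese tumors. Acsl3 had the largest share in obese tumors before therapy with 42.2–48.6%, against 31.7–34.9% in lean tumors before therapy, and it was at 19.5–31.7% in obese tumors after ETS. A share also moves with the other genes of the sum. Before therapy, the level of Acsl3 itself did not separate the hosts (0.02 ± 0.19, adjusted p = 0.949, edgeR), while that of Acsl5 was lower in obese tumors (-1.09 ± 0.15). The share of Acsl1 was 7.64–8.36% in lean tumors before therapy, 9.38–10.7% in lean tumors after ETS, 8.99–13.6% in obese tumors before therapy and 15.9–20.7% in obese tumors after ETS, where it overlapped none of the other groups. In lean tumors the mean level of Acsl1 was 30.5 CPM before therapy and 30.8 CPM after ETS, although its share was higher after ETS. After ETS the obese tumors thus held a mixture with Acsl5 first, and with more Acsl1 than in any other group.

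Among the 5 Acot genes, Acot7 made up 39.4–52.5% of the summed TPM before and 54.5–65.7% after ETS in lean tumors, without overlap, and 48.4–53.4% and 53.4–57.7% in obese tumors. Acot9 made up 12.5–13.1% in lean tumors before therapy, above the 6.63–8.31% in lean tumors after ETS, the 5.88–7.98% in obese tumors before therapy and the 6.72–8.77% in obese tumors after ETS. Acot13 held 24.0–32.2% and 14.5–25.6% in lean and 25.7–31.7% and 18.8–20.7% in obese tumors, before therapy and after ETS. Acot1 and Acot2 made up at most 14.2% and at most 9.20% in any tumor.

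**Figure D4:**
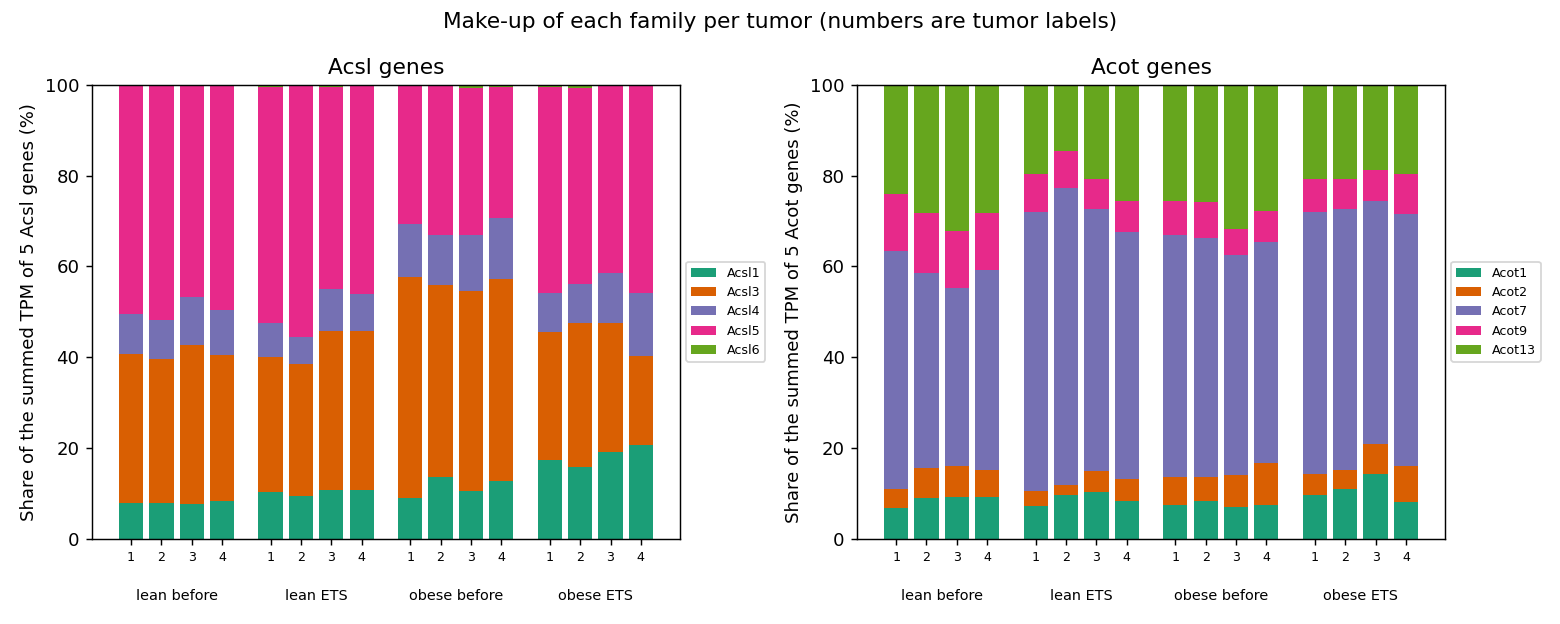
Share of each gene in the summed TPM of the 5 Acsl genes (left) and the 5 Acot genes (right), in percent, with 1 stacked bar per tumor and the tumor numbers of each group under the bars. In obese tumors before therapy, Acsl5 is at 29.0–32.8% of the Acsl sum against 46.6–51.5% in lean tumors before therapy, and Acot9 is at 12.5–13.1% of the Acot sum in lean tumors before therapy against at most 8.77% in all other groups.

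The wider families were counted from lists of the remaining genes with the same activities. Of 19 other acyl-CoA synthetases, 10 were tested, and of 12 other thioesterases, 3. After ETS, 5 of the 10 synthetases were called in lean tumors (3 higher, 2 lower), where 43.8% of all genes were, and 6 in obese tumors (3 higher, 3 lower), where 40.2% were, and 1 of the 3 thioesterases was called higher in each host. The difference between the effects was called for 1 synthetase and no thioesterase, against 16.4% of all genes. Between the hosts before therapy, 3 synthetases (2 higher in obese tumors, 1 lower) and 1 thioesterase (higher) were called, against 26.4% of all genes, and after ETS 1 synthetase (higher) and no thioesterase, against 5.58%.

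Slc27a1, a fatty acid transport protein with acyl-CoA synthetase activity, was called in the 3 comparisons in which Acsl1 was called. Its level was 23.4–30.2 CPM in lean tumors before therapy, 30.03–37.8 CPM in lean tumors after ETS, 25.8–33.3 CPM in obese tumors before therapy and 47.3–83.2 CPM in obese tumors after ETS, and the last group was above the others. The log2 fold change after ETS in obese tumors was 0.99 ± 0.15 (adjusted p = 0.000179, edgeR), the difference between the effects -0.67 ± 0.21 (adjusted p = 0.0386) and obese against lean tumors after ETS 0.85 ± 0.15 (adjusted p = 0.00944). Aacs, which activates acetoacetate in the cytosol, was lower after ETS in lean tumors (log2 fold change -0.75 ± 0.13, adjusted p = 0.000422, edgeR) and lower in obese than in lean tumors before therapy (-0.66 ± 0.13, adjusted p = 0.00174). Acsbg1 was low in all groups and higher after ETS by 1.85 ± 0.23 in lean (adjusted p = 3.95e-05, edgeR) and 1.19 ± 0.23 in obese tumors (adjusted p = 0.00116). Them4, a mitochondrial thioesterase, was higher by 0.93 ± 0.17 in the obese tumors before therapy than in the lean ones (adjusted p = 0.00121, edgeR). In the same comparison, Acot2, Acot7 and Acot13 were called higher, and Acot9, also mitochondrial, was called lower (-0.41 ± 0.12, adjusted p = 0.0215, edgeR).

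For each of the 10 genes, the gene outside the set with the most similar log2 CPM was found among 13305 genes with a mean of at least 1 CPM, over the 16 tumors, which share their group structure and library scaling. Acsl5 was most like Rasal3 (Pearson r = 0.973, Spearman rho = 0.968) and Acot9 most like Coro1a (0.935 and 0.935), both genes known mainly from blood cells. Acsl3 was most like Cyp51 (0.953 and 0.897), an enzyme of cholesterol synthesis, and Acsl1 most like Itga7 (0.948 and 0.765), an integrin chain of muscle. The 8 skeletal muscle markers summed to 5.11, 461, 4.13 and 3.96 CPM in obese tumors 1 to 4 after ETS, with Acsl1 at 51.0, 50.7, 51.8 and 43.7 CPM. They summed to 380 and 225 CPM in lean tumors 1 and 2 after ETS, with Acsl1 at 35.2 and 28.3 CPM. The part of muscle in the Acsl1 values was not tested. Acsl4 was most like Dnajc13 (0.965 and 0.924), Acot7 most like Sirt2 (0.968 and 0.918), Acot2 most like Smap1 (0.936 and 0.935), Acot1 most like 5330417C22Rik (0.925 and 0.944) and Acot13 most like Llph (0.909 and 0.85). Acsl6 had no close match, with Pank1 as the nearest (0.824 and 0.509). These are descriptions over 16 tumors in 4 groups and were not tested.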

How the data were processed

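RNA of the tumors was sequenced as paired ends after stranded mRNA library preparation. Per the labels' processing notes and the methods of the study, the authors used bcl2fastq 2.20.0, Trimmomatic, HISAT2 2.1.0 with the mm10 genome and StringTie 2.1.3b. The deposited read counts are whole numbers per gene, not normalized. The TPM values deposited by the authors come from the same step, are scaled by gene length and library total, and were used for comparing levels between genes, for shares within a family and in 1 alternative. The 16 deposited columns of FPKM values were not used. The strand setting of the counting is not given in the sources used here.

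The table lists 45777 genes. Following the methods of the study, the 29568 genes that lacked counts in 1 tumor or more were left out, so that 16209 were tested. Counts were scaled by TMM and fitted in R 4.3.3 with edgeR 4.0.16 (quasi-likelihood test) with a mean for each of the 4 groups over all 16 tumors, and p-values were adjusted by Benjamini-Hochberg over all tested genes. Standard errors come from the fold change and the F statistic. CPM values in the text are scaled by TMM. Separate animals are not stated for the tumors of a group, so p-values measure the spread between these tumors. No 2 tumors of a group agreed within sampling noise (lowest chi-square per degree of freedom 25.6), and their log2 CPM correlated at 0.970 to 0.992. The scripts were tested on simulated counts.

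Alternatives were DESeq2's size factors, no exclusion of zero counts, filterByExpr, the exact test on counts + 1, DESeq2 1.42.0, limma 3.58.1 on log2(TPM + 1), only the groups compared, a replicate block and each tumor left out. The 10 genes and all lists were chosen with earlier results of these data known. Named besides the 10 genes were, of the other synthetases and thioesterases, the 2 with the lowest p among the called ones with a mean of at least 1 CPM in each comparison, the gene most like each of the 10, and Ppara. Positions come from a RefSeq gene table (GRCm38.p6, the same build as mm10) and sequences from GENCODE M21 transcripts. Marker lists also covered neutrophils, endothelium, skeletal muscle and epidermis. The 6 epidermis markers summed to 159 CPM in obese tumor 2 after ETS, against 2.97, 2.74 and 2.64 CPM in obese tumors 1, 3 and 4 after ETS.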

Additional observations from a re-analysis of the deposited data

Results flagged for a closer look

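The effect of ETS differed between lean and obese tumors, by the test of the difference itself, in 3 of the 10 genes, where 16.4% of all genes were called. Lean minus obese, the difference in log2 fold change was -0.5865 for Acsl1 (adjusted p = 0.0303, edgeR), -0.7742 for Acsl5 (adjusted p = 0.0176, edgeR) and 0.6117 for Acot7 (adjusted p = 0.0241, edgeR). The Acsl1 call was lost in 8 and the Acot7 call in 2 of 16 fits that left out a tumor, as given above by tumor.

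In 4 of 40 groups of 4 tumors, 1 tumor lay far from the other 3, by Dixon's gap test at the 95% level, where chance gives about 1 in 20. Acsl1 was at 42.71 CPM in obese tumor 2 before therapy, above the rest, and at 43.72 CPM in obese tumor 4 after ETS, below the rest. Acsl6 was at 0.7791 CPM in lean tumor 2 after ETS, below the rest, and Acot13 at 36.96 CPM in obese tumor 3 before therapy, above the rest.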

How the results depend on the processing

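Of 380 values of the 10 genes under an alternative that kept all tumors, 349 kept their direction and side of the threshold, 16 passed it where the reported value did not, 9 no longer passed it and 6 changed sign. With each tumor left out in turn, 721 of 800 values were kept, 9 passed, 41 no longer passed and 29 changed sign. None of the values that changed sign was of a call, and the largest reported size among them was 0.281. On the TPM scale, the values that changed sign were -0.34 for Acsl1 and -0.0013 for Acsl6 after ETS in lean tumors, -0.0545 for Acsl1 and -0.12 for Acsl3 between hosts before therapy, and -0.029 for Acsl6 and 0.14 for Acot7 between hosts after ETS. The cause was not tested beyond the shift of all genes given in the report.

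The number of genes called was 3 on the TPM scale after ETS in obese tumors and 3 on that scale between hosts before therapy, in place of 5 in each, where 36.4% and 24.0% of all genes were called on that scale. Between hosts after ETS it was 2 with the exact test, with DESeq2 and with the replicate block, in place of 1, where 9.65%, 12.8% and 10.4% of all genes were called, and over all genes this comparison gave 904 calls against 69 to 2078 in the alternatives that kept all tumors of the groups compared. Without 1 tumor, the number called ranged from 2 to 6 after ETS in lean tumors, from 4 to 6 in obese tumors, from 1 to 3 for the difference between the effects, from 2 to 5 between hosts before therapy and from 1 to 2 between hosts after ETS. Of all genes, 35.8–46.3%, 30.1–40.8%, 12.2–19.0%, 19.0–28.9% and 1.14–8.24% were called in these fits, in the same order.

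The sign changes without 1 tumor were of uncalled values. After ETS in lean tumors, Acsl1 ranged from -0.0755 to 0.0612, Acsl6 from -0.0531 to 0.207 and Acot13 from -0.21 to 0.0049, and in obese tumors Acsl6 from -0.50 to 0.10. For the difference between the effects, Acot1 ranged from -0.23 to 0.11, Acot2 from -0.255 to 0.0334 and Acsl6 from -0.0684 to 0.549. Between hosts before therapy, Acsl1 ranged from -0.0659 to 0.153 and Acsl3 from -0.0795 to 0.102, and after ETS Acsl6 from -0.16 to 0.43, Acot7 from -0.0707 to 0.0617, Acot9 from -0.0146 to 0.13 and Acot13 from -0.0313 to 0.20.

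The deviations of same-numbered tumors correlated above 0.1 in 7 of 16 cases (from -0.0461 to 0.452), not in every pair, and the labels do not tie the numbers together, so they were not taken as pairs. With a replicate block, 5, 6, 4, 5 and 2 genes were called in the 5 comparisons in the order above, in place of 4, 5, 3, 5 and 1. Of all genes, 47.8%, 44.1%, 19.0%, 29.6% and 10.4% were called with that block. The additions were Acsl5 after ETS in lean tumors (-0.37, adjusted p = 0.00975, edgeR), Acsl4 after ETS in obese tumors (-0.30, adjusted p = 0.0471), Acot9 for the difference between the effects (-0.49, adjusted p = 0.0416) and Acot2 between hosts after ETS (0.78, adjusted p = 0.021). Tumors with few counts of a gene limit Acsl6 most, and 4 tumors in each group limit all tests.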
